A study of Chlamydomonas reinhardtii with 18 samples.

Results

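Between 60 and 120 min after cells of the green alga Chlamydomonas reinhardtii were moved into medium without added iron, 407 of 12580 measured genes differed by at least 2-fold. All were compared by the single value that the authors' table gives each time point. The 120 min group is strain CC-4532 in TAP, an acetate-containing medium, 120 min after transfer to fresh TAP with 0 µM Fe-EDTA, and the 60 min group is the same strain 60 min after that transfer. Both groups share every other treatment: mid-log cells kept at 24 °C in constant light (about 90 µmol photons m-2 s-1), pelleted at 2500 g for 5 min and washed 2 times in TAP that lacked Fe-EDTA. The pre-wash samples of the same strain, taken before pelleting, are the starting level from which each distance below is counted. Each of the 9 sampling points has 2 cultures, and the 60 and 120 min pairs make up 4 of the 18 samples. The samples include no transfer into iron-containing medium, so the effects of time, of the wash and of iron removal cannot be told apart. How much iron the cells had until then is not stated in the labels.

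Chlamydomonas takes up iron by reducing ferric iron at the cell surface and then moving it across the plasma membrane through a ferroxidase and permease pair or through ZIP-family transporters, and secreted Fe-assimilation proteins bind iron outside the cell. Iron is needed in heme, in iron-sulfur clusters and in the photosystems, and the alga can live on acetate through the glyoxylate cycle as well as on light. When oxygen is low it ferments, with formate, ethanol and hydrogen among the products.

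Values are FPKM, a count of fragments scaled by transcript length and by library size, though how library size was scaled is not given. Each is the authors' value for both cultures together. There is therefore no replicate error, test or p-value for any difference, and "higher" and "lower" below describe size alone. Differences are on the log2(FPKM + 1) scale, which understates those of weakly expressed genes, while folds beside single genes are plain FPKM ratios. A gene was counted as 2-fold apart when its log2 difference reached 1 in size. Column sums were 666119 FPKM at 120 min and 655361 FPKM at 60 min, and 11869 genes at 120 min and 11516 genes at 60 min had an FPKM of 1 or more. Library depth is unknown. The only guide to variation between samplings is a pair of neighbouring columns: the robust SD of the log2 difference was 0.388 for 120 minus 60 min, and it was 0.168 for 15 minus 10 min, the closest neighbouring pair. In a culture sampled as a whole, fewer cells that express a gene and less RNA per cell cannot be told apart.

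Of all 12580 genes, 6272 lay above 0 and 6308 below 0, with a median log2 difference of -0.002. This median shows that higher and lower genes balanced, not how far they moved, and the robust SD was 0.388. At 120 min 235 genes were at least 2-fold higher than at 60 min, which is 1.87% of those measured, and 172 genes, or 1.37%, were at least 2-fold lower. Together these 407 genes are 3.24%, close to the 3.26% for 60 against 30 min and above the 1.72% for 240 against 120 min. Of the 407 genes 156 carry a gene symbol, beside 4429 of all 12580 genes. An FPKM of at least 5 at 60 or 120 min was reached by 334 of the 407. At the threshold itself, LHCBM8 lay just inside with a log2 difference of 1.00, while UROD1 (just under 1.00), CPX1 (0.99) and PAT1 (0.99) lay just outside.

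Fewer genes lay far from their pre-wash level at 120 min than at 60 min. At 120 min 509 genes, or 4.05%, were 2-fold or more from their pre-wash value, against 969 genes, or 7.70%, at 60 min. Of those 969 genes, 644 were under 2-fold from pre-wash at 120 min, 321 were still 2-fold away on the same side and 4 lay on the other side. The genes that came within 2-fold were split almost evenly by side, with 318 that had been below pre-wash at 60 min and 326 that had been above. Conversely, 184 genes were 2-fold from pre-wash at 120 min and not at 60 min. The 60 min column enters both the step to 120 min and the distance at 60 min, so an error in that column alone would look like a return, and these counts cannot tell such an error from one.

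The 407 genes were sorted by where they stood relative to pre-wash. A full return was counted when a gene was 2-fold from pre-wash at 60 min, moved back by 2-fold and ended under 2-fold away, and 213 genes did so, which is 52.3% of the 407. Of these, 113 were higher at 120 min and 100 were lower. A partial return, still 2-fold away on the same side, was counted for 26 genes. An overshoot, 2-fold away on the other side, was counted for 4 genes, and a further departure, more than before on the same side, for 8 genes. A new change, under 2-fold from pre-wash at 60 min and 2-fold away at 120 min, was counted for 37 genes, of which 23 were higher and 14 lower. The remaining 119 genes moved 2-fold while staying within 2-fold of pre-wash at both times. When the distance was taken at 30 min, a column that the step does not use, 221 genes made a return of some kind, against 243 with the distance at 60 min, and 191 of the 221 were full returns.

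**Figure D1:**
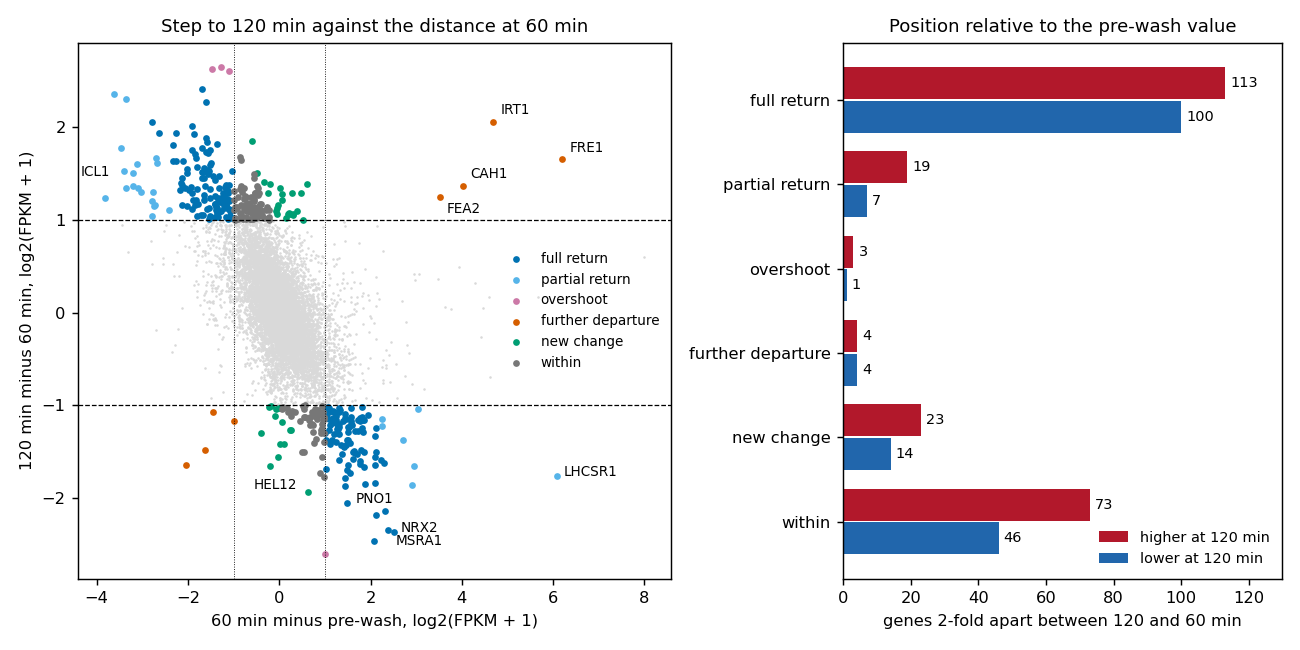
Left, the log2(FPKM + 1) difference of 120 minus 60 min (vertical) against that of 60 min minus pre-wash (horizontal) for 12580 genes, with the 407 genes past the dashed 2-fold lines coloured by their position relative to pre-wash. Right, the number of genes in each position, where the full returns (113 higher, 100 lower) are the largest and FRE1, IRT1, CAH1 and FEA2 are the 4 genes in the upper right that were already above pre-wash and were higher still at 120 min.

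The 240 min samples show what became of these positions. Of the 213 full returns, 182 were still under 2-fold from pre-wash at 240 min, 14 were again 2-fold away on the side they had left, and 17 had passed 2-fold on the opposite side. Of the 37 new changes, 30 were still 2-fold from pre-wash in the same direction at 240 min. All 8 further departures were still 2-fold away. Among the full returns that were higher at 120 min, 38 of 113 had also been at least 2-fold above pre-wash directly after the wash, so these transcripts stood above, then below, then near their starting level. In the opposite direction 7 of the 100 full returns that were lower at 120 min had been 2-fold below pre-wash directly after the wash.

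Iron assimilation as a list stood further from its pre-wash level at 120 min than at 60 min. The 10 measured genes included 4 at least 2-fold higher at 120 min, beside 1.87% over all genes, and 0 lower. Of the 10, 9 lay above 0, and the median log2 difference was 0.51, beside -0.00 for all genes. The list median relative to pre-wash was 1.73 at 60 min, 1.94 at 120 min and 2.82 at 240 min. FRE1 (Cre04.g227400), the gene of a ferric-chelate reductase, had 482 FPKM at 120 min, against 152 FPKM at 60 min, a 3.17-fold difference in a gene at 1.08 FPKM before the wash. IRT1 (Cre12.g530400), a ZIP-family transporter tied to iron nutrition, had 116 FPKM at 120 min, against 27.1 FPKM at 60 min, a 4.28-fold difference. Before the wash IRT1 stood at 0.0922 FPKM, and at 240 min it reached 379 FPKM. FEA2 (Cre12.g546600), a Fe-assimilating protein, had 1648 FPKM at 120 min, against 691 FPKM at 60 min. FRE1, IRT1 and FEA2, with the carbonic anhydrase gene CAH1, are all 4 of the genes that were 2-fold above pre-wash at 60 min and 2-fold higher again at 120 min.

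The fourth gene of the list past 2-fold, MSD3 (Cre16.g676150), has a manganese superoxide dismutase as its product and not an uptake protein. It is also on the list of superoxide dismutases and antioxidant enzymes. MSD3 had 14.2 FPKM at 120 min, against 3.25 FPKM at 60 min, 4.37-fold higher. It had been 11.8 FPKM before the wash, so by 120 min it had only come back to its starting level, and it stood at 67.2 FPKM at 240 min. The other 6 genes of the list were under 2-fold. FEA1, the other Fe-assimilating protein, had 4181 FPKM at 120 min, against 2797 FPKM at 60 min, and IRT2 had 12.7 FPKM, against 9.15 FPKM. The ferroxidase FOX1 (426 FPKM at 120 min, 417 FPKM at 60 min), its partner permease FTR1 (485 and 421 FPKM) and TEF22 (368 and 373 FPKM) differed by less than the robust SD of this pair of columns. These 3 genes were already more than 2-fold above pre-wash at 60 min. CGLD27, a predicted protein, had 42.3 FPKM at 120 min, against 36.6 FPKM at 60 min. At 240 min FOX1 stood at 487 FPKM, not far above its 60 min value, while FRE1 stood at 913 FPKM.

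Iron storage and iron-sulfur cluster genes moved in different directions. The ferritin gene FER1, whose protein stores iron in the plastid, had 740 FPKM at 120 min, against 485 FPKM at 60 min, and FER2 had 1.34 FPKM, against 0.557 FPKM. HMOX1, a heme oxygenase, had 127 FPKM at 120 min and 112 FPKM at 60 min. In iron-sulfur cluster assembly 7 of 9 measured genes lay below 0, with a median log2 difference of -0.28. Only 1 was 2-fold lower, beside 1.37% over all genes. That gene, NFU1, had 24.1 FPKM at 120 min, against 56.8 FPKM at 60 min, and 18.3 FPKM before the wash. The plastid SUF-system genes SUFB1, SUFC1 and SUFD1 were at 71.0, 116 and 39.9 FPKM at 120 min, against 98.2, 155 and 53.5 FPKM at 60 min.

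Light-harvesting antenna genes, whose proteins bind chlorophyll around the photosystems, were the group with the highest median at 120 min among those compared. Of 21 measured genes 20 lay above 0 and 5 were at least 2-fold higher, beside 1.87% over all genes. The median log2 difference was 0.67. Relative to pre-wash the list median was -0.29 at 60 min, 0.32 at 120 min and 1.01 at 240 min, so the antenna median lay below pre-wash and then above it. All 5 belong to the major antenna of photosystem II, the LHCBM genes, which were set apart from the list after the values were seen and had a median of 1.00 over 9 genes. LHCBM2 had 5530 FPKM at 120 min, against 2173 FPKM at 60 min, and LHCBM6 had 3227 FPKM, against 1275 FPKM. LHCBM5 had 1819 FPKM at 120 min, against 760 FPKM at 60 min. LHCBM4, at 1079 FPKM against 467 FPKM, and LHCBM8, at 87.7 FPKM against 43.3 FPKM, were new changes, because they had been near their pre-wash values of 451 and 29.8 FPKM at 60 min. The most abundant member, LHCBM1, differed least among the LHCBM genes, with 9087 FPKM at 120 min and 7443 FPKM at 60 min. LHCBM genes are similar in sequence, and the labels do not say how reads that match several of them were divided, so the split between members is uncertain.

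The antenna of photosystem I moved less. None of the 9 LHCA genes, likewise set apart after the values were seen, was 2-fold higher, and their median log2 difference was 0.38. LHCA5, the highest, had 1156 FPKM at 120 min, against 677 FPKM at 60 min. The only antenna gene below 0 was LHCB7, with 12.3 FPKM at 120 min and 15.9 FPKM at 60 min. Subunits of the photosystems followed the same order, with a median of 0.57 over 13 photosystem II genes and of 0.30 over 10 photosystem I genes. PSBY2 was the 1 of 13 photosystem II genes past 2-fold higher, beside 1.87% over all genes, at 470 FPKM against 225 FPKM. PSBO, a subunit of the oxygen-evolving complex, had 2339 FPKM at 120 min, against 1504 FPKM at 60 min and 2278 FPKM before the wash. Cytochrome b6f, plastocyanin and plastid ATP synthase genes had a median of 0.13 over 9 genes.

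Beside the antenna genes, NAB1 and TBA1 were also higher at 120 min. NAB1, an RNA-binding protein known to hold back translation of LHCBM messages in this alga, had 214 FPKM at 120 min, against 84.6 FPKM at 60 min. TBA1, annotated as a translation factor for psbA, had 20.8 FPKM at 120 min, against 6.69 FPKM at 60 min. Both were within 2-fold of pre-wash at 60 and 120 min.

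Tetrapyrrole synthesis, the pathway to chlorophyll and heme, was higher as a group without any member past 2-fold. Of 27 measured genes 25 lay above 0, and the median log2 difference was 0.46. The list median relative to pre-wash was 0.10 at 60 min, 0.61 at 120 min and 0.42 at 240 min. UROD1, uroporphyrinogen decarboxylase, had 439 FPKM at 120 min, against 220 FPKM at 60 min, and the coproporphyrinogen oxidase gene CPX1 had 294 FPKM, against 147 FPKM. POR, the light-dependent protochlorophyllide reductase, had 429 FPKM at 120 min, against 228 FPKM at 60 min. The magnesium chelatase subunit CHLH1, which commits the pathway to chlorophyll, had 217 FPKM at 120 min and 206 FPKM at 60 min. FeC, ferrochelatase, which puts iron into heme, lay the other way, with 50.9 FPKM at 120 min, against 79.3 FPKM at 60 min and 35.2 FPKM before the wash.

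**Figure D2:**
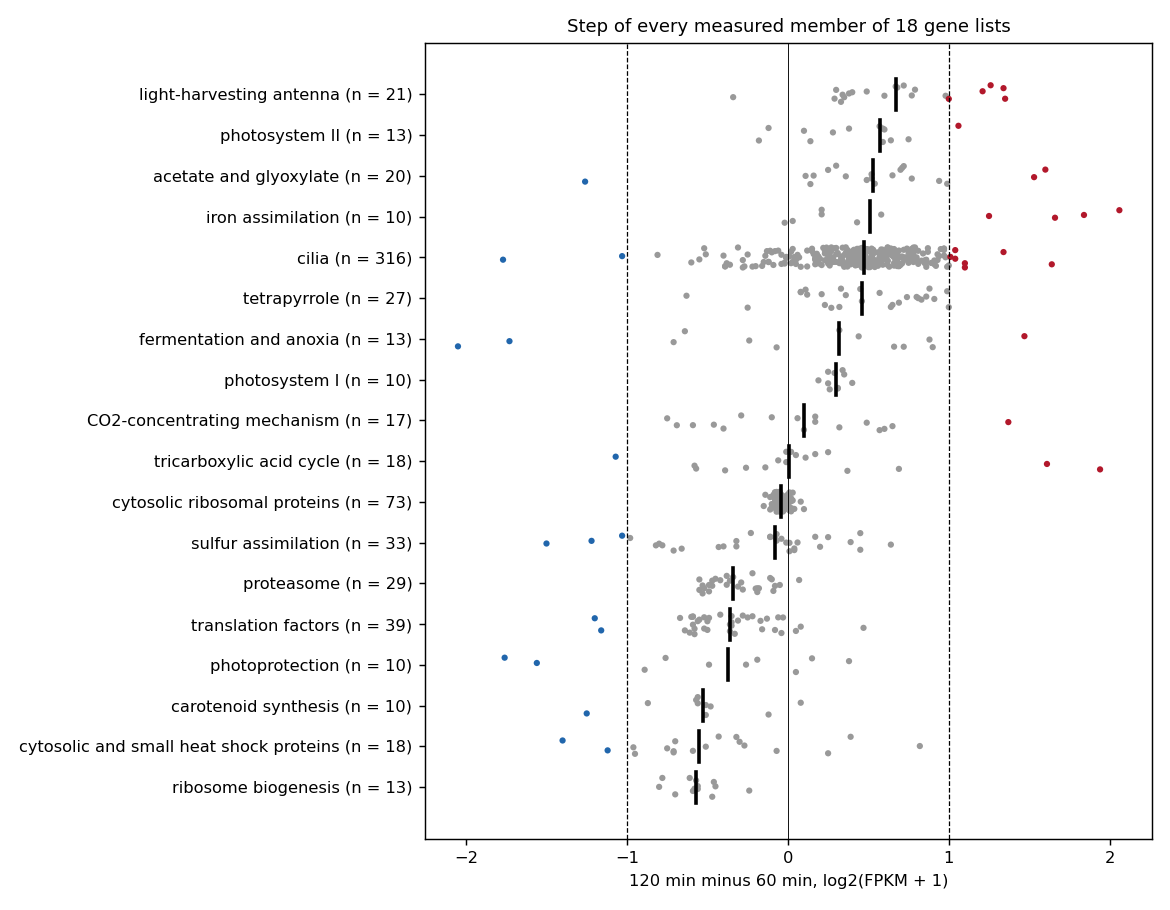
The log2(FPKM + 1) difference of 120 minus 60 min for every measured gene (points) of 18 lists, each with its median (black bar), red and blue points being those at least 2-fold higher or lower at 120 min and dashed lines marking 2-fold. Antenna genes have the highest median (0.67), ribosome biogenesis genes the lowest (-0.57), and the 73 cytosolic ribosomal protein genes all lie between -0.15 and 0.10.

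Acetate and glyoxylate genes moved back toward their pre-wash level but stayed well below it. Of 20 measured genes 19 lay above 0, 2 were past 2-fold higher and 1 lower, beside 1.87% and 1.37% over all genes. The median was 0.53. The median distance from pre-wash was -1.48 at 60 min, -0.81 at 120 min and -0.66 at 240 min. ICL1, isocitrate lyase, the enzyme that defines the glyoxylate cycle, had 509 FPKM at 120 min, against 176 FPKM at 60 min and 1861 FPKM before the wash. MAS1, malate synthase, the next enzyme of the cycle, had 148 FPKM at 120 min, against 48.1 FPKM at 60 min and 424 FPKM before the wash. Both were counted as partial returns. The acetyl-CoA synthetase gene ACS3, which activates acetate, had 142 FPKM at 120 min, against 73.6 FPKM at 60 min and 416 FPKM before the wash. ICL2, a gene with no product in the deposited table, went the other way, with 30.6 FPKM at 120 min, against 74.8 FPKM at 60 min and 30.3 FPKM before the wash.

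The tricarboxylic acid cycle, which shares intermediates with the glyoxylate cycle, did not move as a group. Its 18 measured genes were split 9 above and 9 below 0 around a median of 0.01, and the list stayed low relative to pre-wash, at -1.16 at 60 min and -0.88 at 120 min. ACO3, a gene with no product in the deposited table, had 19.9 FPKM at 120 min, against 4.44 FPKM at 60 min and 32.9 FPKM before the wash. IDH3, an NADP-dependent isocitrate dehydrogenase, was a further departure, with 20.7 FPKM at 120 min, against 44.4 FPKM at 60 min and 124 FPKM before the wash, a log2 difference of -1.07. It was under 2-fold (-0.98) after quantile normalization, which gives every column the same distribution. The succinate dehydrogenase subunit SDH3 had 28.6 FPKM at 120 min, against 37.8 FPKM at 60 min and 97.6 FPKM before the wash. Of 82 respiratory chain genes 56 lay above and 26 below 0, with a median of 0.08. Past 2-fold in either direction were 0 of them, beside 3.24% over all genes.

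Fermentation genes differed in both directions. The 13 measured genes held 1 at least 2-fold higher and 2 lower, beside 1.87% and 1.37% over all genes. Their median was 0.32, and it was 0.02 without the filter on low values. HYDA1, the iron hydrogenase, had 59.5 FPKM at 120 min, against 20.8 FPKM at 60 min, and so came back to its 58.5 FPKM before the wash after 391 FPKM directly after it. PFL1, pyruvate-formate lyase, had 101 FPKM at 120 min, against 338 FPKM at 60 min and 181 FPKM before the wash. PNO1, with no product in the deposited table, had 1.41 FPKM at 120 min, against 9.02 FPKM at 60 min. The hydrogenase assembly gene HYDG1 had 6.75 FPKM at 120 min, against 3.91 FPKM at 60 min, and stayed below its 16.8 FPKM before the wash. AOX1, an alternative oxidase, had 10.3 FPKM at 120 min, against 4.10 FPKM at 60 min, 19.7 FPKM before the wash and 129 FPKM directly after it. It belongs to a separate list of alternative oxidases and type II NADH dehydrogenases. There 2 of 10 measured genes lay above 0 and 8 below, with a median of -0.18. AOX1 was the 1 past 2-fold higher in that list, beside 1.87% over all genes. The other alternative oxidase, AOX2, had 1.32 FPKM at 120 min, against 1.85 FPKM at 60 min.

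Several other genes counted as returns stood high after the wash, low at 60 min and nearer pre-wash at 120 min. PSRP1, a plastid-specific ribosomal protein, had 275 FPKM directly after the wash, 19.9 FPKM at 60 min and 83.0 FPKM at 120 min, with 77.9 FPKM before the wash. FAP15, a flagellar associated protein, had 72.9 FPKM directly after the wash, 1.98 FPKM at 60 min and 8.27 FPKM at 120 min, with 11.8 FPKM before it. PHX15, a gene of the cell wall list with no deposited product, had 811 FPKM directly after the wash, 3.18 FPKM at 60 min and 19.7 FPKM at 120 min, with 41.8 FPKM before it, and was a partial return. TGL20, a gene with a lipase symbol, had 52.1 FPKM directly after the wash, 3.27 FPKM at 60 min and 12.3 FPKM at 120 min, with 19.6 FPKM before it. The starch list, with 27 genes in use, split into 14 above and 13 below 0 around a median of 0.21. Past 2-fold, 3 lay on the higher side and 1 on the lower, beside 1.87% and 1.37% over all genes. Its 3 higher genes, SSS2, AMYB2 and AMYA1, had 162, 72.2 and 59.8 FPKM directly after the wash. The soluble starch synthase SSS2 had 67.8 FPKM at 120 min, against 28.8 FPKM at 60 min and 63.3 FPKM before the wash. The beta-amylase AMYB2 had 25.9 FPKM, against 11.0 FPKM, with 30.8 FPKM before the wash. The alpha-amylase AMYA1 had 19.5 FPKM, against 8.19 FPKM, and stayed below its 39.6 FPKM before the wash (-0.99 on the log2 scale). STA2, the granule-bound starch synthase that makes amylose, went the opposite way, with 201 FPKM at 120 min, against 410 FPKM at 60 min and 115 FPKM before the wash. After quantile normalization STA2 was under 2-fold (-0.85).

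Other transcripts stood above pre-wash at 60 min and near it at 120 min. By plain ratio NRX2, a nucleoredoxin, was 5.38-fold lower, with 20.1 FPKM at 120 min, against 108 FPKM at 60 min and 18.1 FPKM before the wash. MSRA1, a peptide methionine sulfoxide reductase that repairs oxidised methionine, was 5.84-fold lower, with 5.45 FPKM at 120 min, against 31.8 FPKM at 60 min and 5.24 FPKM before the wash. SELW1, selenoprotein W1, had 19.3 FPKM at 120 min, against 90.7 FPKM at 60 min and 20.3 FPKM before the wash. These 3 genes ended within 0.14 of their pre-wash values on the log2 scale. The lists that hold NRX2 and MSRA1 were not lower as groups. Of 21 nucleoredoxin and thioredoxin genes 15 lay above 0, with 1 past 2-fold higher, 2 lower and a median of 0.22. NTR2, the 1 higher, had 4.17 FPKM at 120 min, against 1.52 FPKM at 60 min. Of 30 superoxide dismutase and antioxidant genes 20 lay above 0, with 1 higher, 1 lower and a median of 0.17. Over all genes 1.87% were higher and 1.37% lower.

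Photoprotection and carotenoid genes were lower at 120 min, and their medians stayed above pre-wash. Of 10 photoprotection genes 2 were at least 2-fold lower, beside 1.37% over all genes, and 0 higher, with a median log2 difference of -0.37 and a median distance from pre-wash of 1.47 at 60 min and 0.94 at 120 min. LHCSR1, a stress-related antenna protein that dissipates excess light energy, had 147 FPKM at 120 min, against 501 FPKM at 60 min, and was still far above its 6.40 FPKM before the wash. ELI6, a protein of the early light-inducible type, had 23.9 FPKM at 120 min, against 72.3 FPKM at 60 min. In contrast LHCSR3.1 (41.5 FPKM at 120 min, 39.9 FPKM at 60 min) and LHCSR3.2 (42.1 and 50.7 FPKM) stayed at their raised levels, though reads of these near-identical genes may be divided between them. In carotenoid synthesis 9 of 10 genes lay below 0 around a median of -0.53, and CBH1, beta-carotene hydroxylase, had 24.2 FPKM at 120 min, against 58.9 FPKM at 60 min.

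The CO2-concentrating mechanism, the set of carbonic anhydrases and bicarbonate transporters that supplies CO2 to Rubisco, stayed high and split internally. Among 17 measured genes 10 lay above and 7 below 0, and the median step was 0.10. Only 1 was at least 2-fold higher, beside 1.87% over all genes. The list median relative to pre-wash nevertheless was 2.40 at 60 min and 1.94 at 120 min, because a median of steps and a difference of medians need not share a sign. CAH1, the periplasmic carbonic anhydrase, had 2981 FPKM at 120 min, against 1152 FPKM at 60 min and 69.5 FPKM before the wash. LCI1, a low-CO2-inducible membrane protein, had 539 FPKM at 120 min, against 355 FPKM at 60 min. LCIB and LCIC, which form a complex around the pyrenoid, were lower at 120 min, with 1591 and 986 FPKM, against 2191 and 1485 FPKM at 60 min. CAH3, the carbonic anhydrase of the thylakoid lumen, had 256 FPKM at 120 min, against 431 FPKM at 60 min. CAH2, another periplasmic carbonic anhydrase, had 41.7 FPKM at 120 min, against 12.6 FPKM at 60 min, and was within 2-fold of pre-wash at both times. Reads of the similar pairs CAH4 and CAH5, and CCP1 and CCP2, may be divided between the copies. The same may hold for CAH1 and CAH2, so the value of CAH2 may not be independent of that of CAH1.

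Ribosome biogenesis genes and translation factors were lower as groups by small amounts. All 13 ribosome biogenesis genes lay below 0, with a median log2 difference of -0.57 and 0 past 2-fold, and this list moved away from pre-wash, with medians of -0.19 at 60 min, -0.72 at 120 min and -1.49 at 240 min. NOP1, the nucleolar protein that methylates ribosomal RNA, had 328 FPKM at 120 min, against 502 FPKM at 60 min and 572 FPKM before the wash. NOP10, another nucleolar protein, had 90.5 FPKM at 120 min, against 156 FPKM at 60 min. Of 39 translation factors 36 lay below 0 and 2 were at least 2-fold lower, beside 1.37% over all genes. Their median was -0.36. EIF6, which acts in the making and release of the large ribosomal subunit, had 62.2 FPKM at 120 min, against 140 FPKM at 60 min, and was under 2-fold (-0.98) after quantile normalization. The genes for ribosomal proteins of the cytosol hardly moved, with steps between -0.15 and 0.10 over 73 genes.

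Genes of the heat shock and proteasome lists were lower as groups and nearer pre-wash at 120 min, while the median steps of other chaperone lists were small. Of 18 genes in the cytosolic and small heat shock list, 15 lay below 0. Past 2-fold lower were 2 of them, beside 1.37% over all genes. The median was -0.55 (-0.31 without the filter on low values), with a distance from pre-wash of 0.78 at 60 min and 0.08 at 120 min. HSP90B, annotated to the endoplasmic reticulum, belongs to both this list and the endoplasmic reticulum list, with a log2 difference of 0.39. HSP70A, the main cytosolic HSP70, had 342 FPKM at 120 min, against 902 FPKM at 60 min and 381 FPKM before the wash. HSP70E, just under 2-fold after quantile normalization, had 41.9 FPKM at 120 min, against 92.0 FPKM at 60 min, and the plastid co-chaperone CDJ1 had 31.3 FPKM, against 78.4 FPKM. Of 29 proteasome genes 28 lay below 0, none past 2-fold, and the median was -0.34. The 41 plastid chaperones and proteases had a median of -0.06, with 19 above and 22 below 0, and the 11 endoplasmic reticulum chaperones a median of 0.17, with 7 above and 4 below 0. BIP2, a gene of the endoplasmic reticulum chaperone list with no deposited product, was a further departure, with 7.92 FPKM at 120 min, against 19.0 FPKM at 60 min and 39.1 FPKM before the wash.

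**Figure D3:**
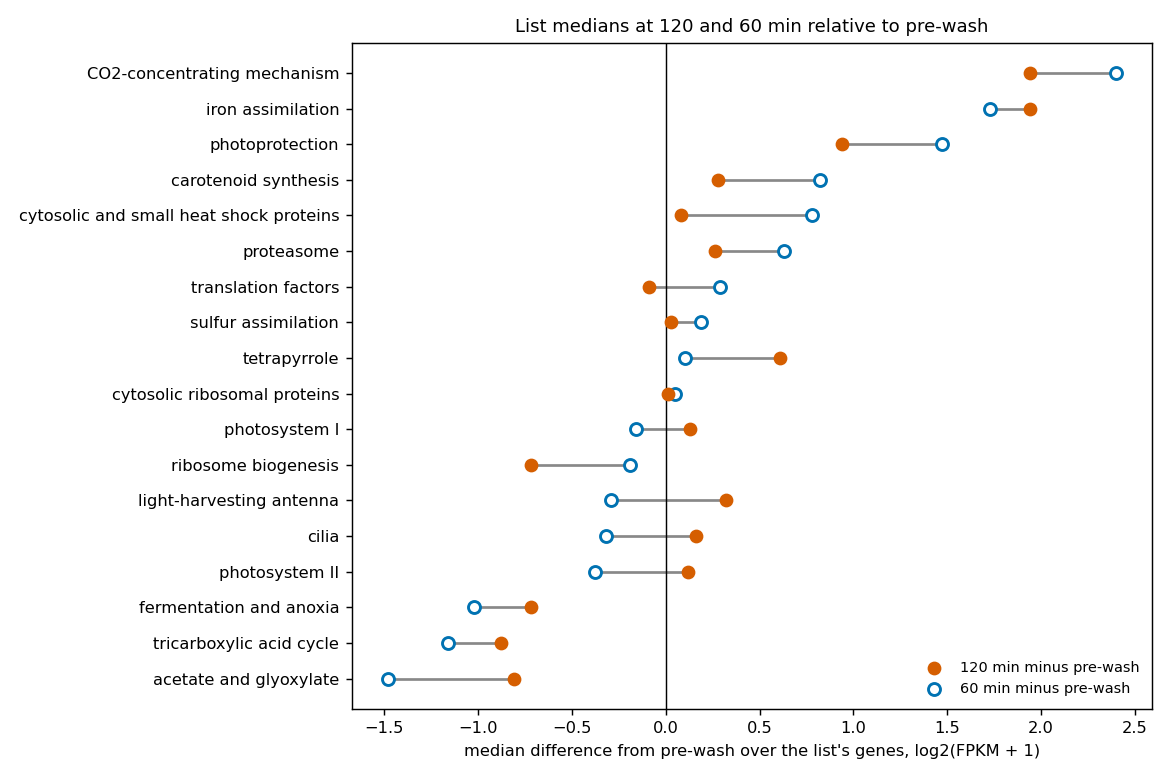
The median log2(FPKM + 1) difference from pre-wash over the genes of 18 lists at 120 min (filled) and 60 min (open). The filled point lies nearer 0 than the open point for acetate, fermentation, photoprotection, carotenoid and heat shock genes, lies further from 0 for iron assimilation, tetrapyrrole and ribosome biogenesis genes, and lies across 0 for antenna, cilia, translation factor and photosystem genes.

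Sulfur assimilation as a list had a median near 0, and 3 of its sulfate transporter genes were lower at 120 min. The list holds 33 measured genes with a median of -0.08, of which 3 were past 2-fold lower, all transporters, and 0 past 2-fold higher. Over all genes 1.37% were lower and 1.87% higher by that measure. Over all 9 measured sulfate transporters, a group formed after the values were seen, 7 lay below and 2 above 0, with a median of -0.82. SULTR2, a plasma-membrane sulfate transporter, had 30.0 FPKM at 120 min, against 86.6 FPKM at 60 min and 23.1 FPKM before the wash. The sodium/sulfate co-transporter genes SLT1 and SLT3 had 9.32 and 45.7 FPKM at 120 min, against 23.1 and 94.3 FPKM at 60 min, although SLT3 was under 2-fold (-0.91) after quantile normalization. In the fatty acid list of 22 measured genes 2 desaturases were at least 2-fold lower and 0 genes higher, beside 1.37% and 1.87% over all genes. The median of that list was -0.01. FAD7, the desaturase of chloroplast glycerolipids, had 197 FPKM at 120 min, against 435 FPKM at 60 min and 192 FPKM before the wash, and FAD3 had 49.7 FPKM, against 119 FPKM, with 48.5 FPKM before the wash. Outside that list Cre04.g217945, annotated as a fatty acid desaturase and named after its values were seen, was higher, with 5.08 FPKM at 120 min, against 1.22 FPKM at 60 min. In nitrogen assimilation NAR1.4, of the formate and nitrite transporter family, was the 1 of 19 genes past 2-fold. It had 10.5 FPKM at 120 min, against 24.0 FPKM at 60 min. Over all genes 3.24% were past 2-fold either way, and the nitrogen list had a median of -0.03.

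Cilia genes, the largest list, were higher by a small and broad margin. Of 316 measured genes 279 lay above 0, 7 were past 2-fold higher and 2 lower, and the median log2 difference was 0.47. The list median relative to pre-wash was -0.32 at 60 min, 0.16 at 120 min and -0.03 at 240 min. FAP35, a flagellar associated protein, had 166 FPKM at 120 min, against 64.9 FPKM at 60 min and 147 FPKM before the wash. FAP280, at 214 FPKM against 437 FPKM, and FAP151, an ABC transporter-like protein at 48.9 FPKM against 170 FPKM, were the 2 that were lower. The share of cilia genes past 2-fold was 7 of 316 for higher and 2 of 316 for lower, near the 1.87% and 1.37% over all genes. The list therefore does not stand out by its count past 2-fold. It stands out by its median and by the 279 of 316 genes above 0, beside 6272 of 12580 over all genes.

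New changes were few. Among the 23 genes that were higher, 10 have a symbol. SOUL1, a SOUL-family heme-binding protein, had 15.2 FPKM at 120 min, against 4.67 FPKM at 60 min and 6.88 FPKM before the wash, and reached 29.4 FPKM at 240 min. CAX5 had 17.6 FPKM at 120 min, against 6.10 FPKM at 60 min and 3.67 FPKM before the wash. CGL2, a methyltransferase that uses S-adenosylmethionine, had 7.25 FPKM at 120 min, against 2.39 FPKM at 60 min, and the metalloproteinase MMP4 had 5.95 FPKM, against 1.74 FPKM. MMP4 was back at 1.66 FPKM at 240 min, and it had been at 12.5 FPKM at 5 min. The others with a symbol, named after their values were seen, are LHCBM4, LHCBM8, RJL1, PCD3, MCC1 and COQ5B. Of these RJL1, a small Rab-related GTPase, had 37.8 FPKM at 120 min, against 17.2 FPKM at 60 min, and went on to 106 FPKM at 240 min.

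Among the 14 new changes that were lower, 5 have a symbol and 3 of those are genes with helicase symbols. HEL12, a DEAD-box RNA helicase, had 8.45 FPKM at 120 min, against 35.3 FPKM at 60 min and 22.6 FPKM before the wash. HEL57 had 19.7 FPKM at 120 min, against 49.0 FPKM at 60 min, and HEL62 had 8.83 FPKM, against 20.4 FPKM. PRMT1, a protein arginine methyltransferase, had 24.5 FPKM at 120 min, against 67.2 FPKM at 60 min and 62.1 FPKM before the wash. VSP1, a hydroxyproline-rich cell wall protein, had 33.4 FPKM at 120 min, against 68.3 FPKM at 60 min, and was under 2-fold (-0.90) after quantile normalization. New is meant relative to 60 min only, since 15 of the 37 genes had been 2-fold from pre-wash at some point from post-wash to 30 min, HEL12 among them with 6.59 FPKM directly after the wash and 95.9 FPKM at 30 min.

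**Figure D4:**
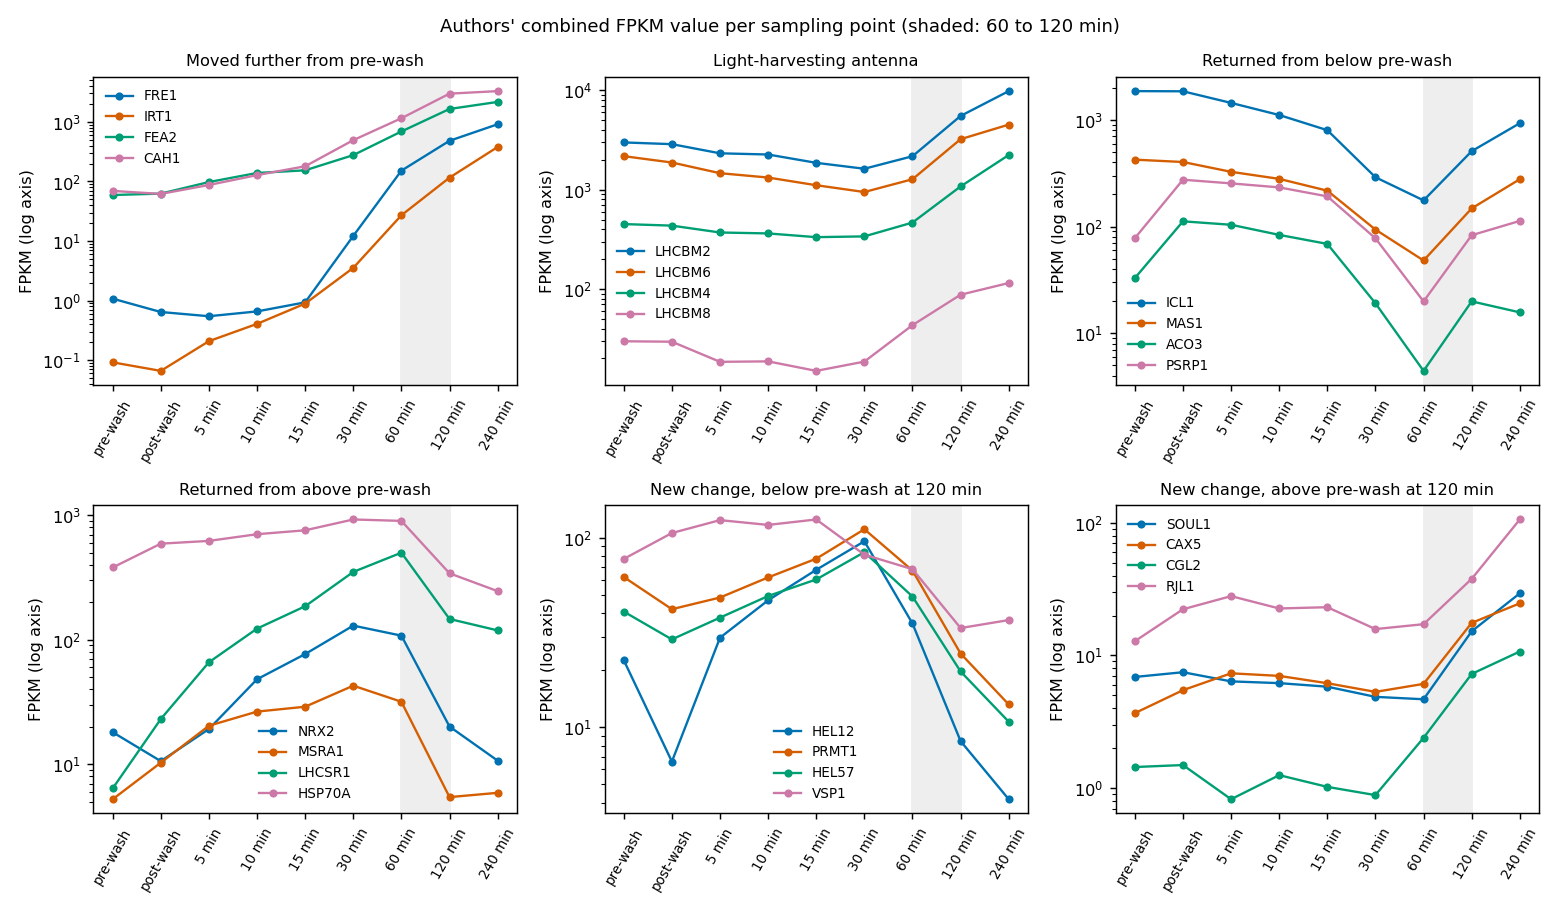
FPKM on a log axis at the 9 sampling points for 24 genes, 1 combined value per point, with the interval from 60 to 120 min shaded. FRE1, IRT1, FEA2 and CAH1 go on upward through the interval, ICL1, MAS1, ACO3 and PSRP1 have their lowest value at 60 min, and NRX2, MSRA1, LHCSR1 and HSP70A are lower at its end than at its start.

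The largest steps of all belong to genes without a symbol or deposited product. Cre06.g263200 had 9.11 FPKM at 120 min, against 0.610 FPKM at 60 min, a log2 difference of 2.65, and Cre12.g542350 had 10.0 FPKM, against 66.5 FPKM, a log2 difference of -2.61. Both are overshoots, as are Cre01.g004700 and Cre02.g079450, which were named after their values were seen and had 13.3 and 34.1 FPKM at 120 min, against 1.31 and 4.76 FPKM at 60 min. Cre12.g542350 had been 281 FPKM directly after the wash and 32.7 FPKM before it. A threshold of 4-fold left 10 genes that were higher and 7 that were lower, and those with a symbol were IRT1, PHX15 and PSRP1 on the higher side and NRX2, MSRA1, SELW1 and PNO1 on the lower side. IRT1 is the 1 further departure among these 17 genes, and the others were full or partial returns or overshoots.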

How the data were processed

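Polyadenylated RNA was sequenced by Illumina HiSeq, per the labels. The authors deposited FPKM for 17741 genes, with identifiers of annotation v5.6 per the file headers and 1 column per time point for both cultures. The submitters' processing notes name STAR 2.4.1 and Cuffdiff 2.0.2; library scaling, multimapping and strand use are not given in the sources used here. Another 9 columns of other samples were not used.

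Differences of log2(FPKM + 1) were computed in Python 3.11.15 (pandas 2.3.3) for 12580 genes that reached 1 FPKM in 2 or more of 9 columns. With 1 value per group no model was fitted. The counting code was tested on simulated data with planted changes well past 2-fold and less noise than the spread guide. That test checks the code and not the positions given to these genes. Symbols came from the deposited names and synonyms (5185 genes). The 46 gene lists were chosen with earlier results of these data known, and 30 entries whose deposited product names another protein were left out after the data were seen. Named genes are those of the iron assimilation list, the 5 furthest of each other list, and the largest without a symbol each way. Others were drawn only from genes with a symbol and FPKM of 5 or more at 60 or 120 min. These are the 12 with the largest difference each way and up to 5 per position and direction. CHLH1, FeC, HYDG1, LCIB, LCIC, LHCA5, LHCB7, LHCBM1, LHCSR3.1, LHCSR3.2, SDH3 and FAP280 were added after their values were seen. Alternatives were a pseudocount of 0.1, other filters on low values, quantile normalization, median-of-ratios scaling, thresholds of 1.5 and 4-fold, and distances from post-wash or at 30 min.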

Additional observations from a re-analysis of the deposited data

How the results depend on the processing

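No paired analysis was possible because the authors combined the 2 cultures of each time point into 1 column, so leaving out a replicate was not done either. Library depth is unknown, so no counting error can be given.

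A 1.5-fold threshold gave 1213 genes higher and 904 lower (2117 in all), and a 4-fold threshold 10 and 7 (17 in all). A pseudocount of 0.1, which lets weakly expressed genes through, gave 687 higher and 274 lower (961 in all), with 505 full returns, 55 partial returns, 7 overshoots, 13 further departures, 95 new changes and 286 that stayed within 2-fold, so 567 returns of any kind. With distances counted from post-wash there were 105 partial returns, 1 overshoot, 13 further departures and 66 genes within 2-fold. With a distance threshold of 1.5-fold there were 59 partial returns, 16 overshoots, 69 new changes and 12 genes within. With the distance at 30 min there were 8 overshoots. Quantile normalization gave 280 genes higher and 167 lower with 264 returns, and moved the median of all genes to -0.027. Of 251 named genes, 44 moved by more than the spread guide of 0.168 with the pseudocount of 0.1, and 6 of 250 fell under 2-fold with quantile normalization. None turned its direction among those 2-fold apart. Of 46 list medians, 1 moved with the pseudocount of 0.1, 3 with no filter on low values and 4 with a filter of 5 FPKM. The starch median was -0.02 with that filter, against 0.21.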

Other observations

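The genes below were grouped after their values were seen, so their counts describe them and carry no weight as a test. Genes annotated or named as selenoproteins, which hold the amino acid selenocysteine and mostly act in redox reactions, were lower at 120 min in 9 of 9 measured cases. Their log2 differences ran from -2.35 to -0.49 around a median of -1.48, and 5 were past 2-fold lower, beside 1.37% over all genes. Their median distance from pre-wash was 1.56 at 60 min, 0.31 at 120 min and 0.22 at 240 min. Beside MSRA1 and SELW1, the thioredoxin reductase NTR1 had 11.0 FPKM at 120 min, against 35.2 FPKM at 60 min and 13.5 FPKM before the wash. SELU1 had 3.87 FPKM at 120 min, against 12.6 FPKM at 60 min, and SELH1 had 2.14 FPKM, against 8.50 FPKM. The glutathione peroxidase GPX1 (7.98 FPKM at 120 min, 14.1 FPKM at 60 min), SELT1 (15.6 and 28.4 FPKM) and SELK1 (51.2 and 72.1 FPKM) were lower by less than 2-fold. SELW2 had 2.37 FPKM at 120 min, against 3.81 FPKM at 60 min.

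Among 43 measured genes with an RNA helicase symbol (HEL), 7 were at least 2-fold lower and 0 higher, beside 1.37% and 1.87% over all genes. Their median was -0.31. HEL1 had 29.9 FPKM at 120 min, against 112 FPKM at 60 min and 40.6 FPKM before the wash, and HEL65 had 23.7 FPKM, against 64.6 FPKM, with 37.8 FPKM before the wash. All 11 subunits of the translation initiation factor eIF3 lay below 0, with a median of -0.52 and none past 2-fold. All 24 genes of intraflagellar transport and the BBSome, which carry cargo along cilia, lay above 0, with a median of 0.56. In peptidyl-prolyl isomerases of the FKB and CYN families, which help proteins fold, 4 of 50 were at least 2-fold higher and 0 lower. Over all genes the shares were 1.87% and 1.37%, and the median of the 50 isomerases was 0.19. The highest of them, CYN23b, had 16.4 FPKM at 120 min, against 3.59 FPKM at 60 min and 15.6 FPKM before the wash.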
